A study of Mus musculus with 12 samples.

Results

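The 8 genes described here, which have no known common function, were measured in somatic cells of mouse fetal gonads, in mutants of the histone demethylase gene Kdm3a and in their controls. They were Tph2, Vav3, Ak7, Atp8b3, Capg, Hspb2, Sprr2d and Ugt2b36, 8 of the 18749 genes that the arrays name. They were selected because measured levels on these same 12 arrays were lower in mutants of both sexes, so the mutant values of the 8 genes below describe the choice and carry no test. That selection held on every array for 7 of them, but for Ugt2b36 the control and mutant males overlapped.

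Each array held RNA of a single embryo at embryonic day 11.5. The 4 groups of 3 embryos were control females (XX) and control males (XY), both heterozygous for a mutant Jmjd1a allele, and mutant females and mutant males, both homozygous for it. Jmjd1a is the older symbol of Kdm3a, and the labels call the homozygous embryos null or KO. The controls thus carried the mutant allele too. All embryos carried the Nr5a1/CD271 transgene, through which CD271-bearing cells were taken with magnetic beads from trypsinized gonads and mesonephroi. Such a preparation holds the cells in which Nr5a1 drives the transgene, plus whatever other cells the beads retained. The sources used here give neither strain nor litter. All 9 markers of gonadal somatic cells that were looked up (Nr5a1, Wt1, Gata4, Lhx9, Emx2, Cbx2, Nr0b1, Wnt4 and Tcf21) were well above background on every array. Between 58% and 65.2% of spots per array were well above background. Their 75th percentile of signal ran from 142.9 to 299.5, lowest in a control male and highest in a mutant female.

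Kdm3a removes methyl groups from lysine 9 of histone H3, a mark of silent chromatin, and so is known as an activator of transcription. In the fetal mouse gonad it is known for the activation of the testis-determining gene on the Y chromosome. Of the 8 genes, Tph2 encodes the rate-limiting enzyme of serotonin synthesis in neurons. Vav3 is a guanine nucleotide exchange factor, and Capg caps the fast-growing ends of actin filaments. Ak7 is an adenylate kinase of motile cilia, Atp8b3 a phospholipid-moving ATPase known from mouse sperm, and Hspb2 a small heat shock protein of muscle. Sprr2d encodes a small proline-rich protein of the cornified envelope, and Ugt2b36 an enzyme that joins glucuronic acid to lipophilic compounds. The 8 genes lie on 6 chromosomes: Tph2 and Atp8b3 on chromosome 10, Vav3 and Sprr2d on chromosome 3, and the others on chromosomes 12, 6, 9 and 5.

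The sequence just before the transcription start differed widely among them. RefSeq promoter windows of 250 bases before the start (assembly GRCm38.p6) were found for 7 of the 8 genes, all but Hspb2. Windows are shown for Tph2 and Ugt2b36, whose signal was at background in mutants, for Vav3, whose groups were the tightest, and for Sprr2d with its neighbour Sprr2e, which was lower in mutants too. Each is written 5′ to 3′ on the strand of the gene, with matches to the searched motifs in capitals. The windows are chr10:115185023-115185272 (minus strand) for Tph2, chr5:87092556-87092805 (minus) for Ugt2b36, chr3:109340433-109340682 (plus) for the first of 3 Vav3 starts, chr3:92338890-92339139 (plus) for Sprr2d and chr3:92351893-92352142 (plus) for Sprr2e.
Tph2: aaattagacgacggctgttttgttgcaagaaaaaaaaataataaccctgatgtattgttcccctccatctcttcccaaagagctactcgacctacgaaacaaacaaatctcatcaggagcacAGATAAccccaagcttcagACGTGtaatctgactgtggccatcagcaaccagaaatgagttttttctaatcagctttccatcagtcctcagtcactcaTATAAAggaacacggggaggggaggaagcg
Ugt2b36: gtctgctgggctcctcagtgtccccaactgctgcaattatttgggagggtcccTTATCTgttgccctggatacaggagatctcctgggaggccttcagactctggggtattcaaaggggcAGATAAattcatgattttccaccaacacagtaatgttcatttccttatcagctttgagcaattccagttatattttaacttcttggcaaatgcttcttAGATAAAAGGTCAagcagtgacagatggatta
Vav3: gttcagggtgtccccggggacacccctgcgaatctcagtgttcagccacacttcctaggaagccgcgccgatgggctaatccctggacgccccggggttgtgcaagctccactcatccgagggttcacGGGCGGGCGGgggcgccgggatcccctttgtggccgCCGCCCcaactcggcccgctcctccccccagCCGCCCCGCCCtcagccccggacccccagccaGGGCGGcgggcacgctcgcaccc
Sprr2d: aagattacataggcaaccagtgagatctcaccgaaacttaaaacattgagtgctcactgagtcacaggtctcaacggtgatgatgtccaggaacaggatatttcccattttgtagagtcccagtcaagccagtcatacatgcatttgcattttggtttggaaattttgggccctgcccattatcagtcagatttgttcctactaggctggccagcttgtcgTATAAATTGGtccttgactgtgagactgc
Sprr2e: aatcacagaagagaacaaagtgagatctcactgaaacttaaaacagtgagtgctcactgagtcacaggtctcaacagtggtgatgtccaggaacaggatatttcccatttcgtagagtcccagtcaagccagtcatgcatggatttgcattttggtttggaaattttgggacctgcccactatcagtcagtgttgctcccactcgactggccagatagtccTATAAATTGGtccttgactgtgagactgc

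The motifs were searched on both strands. They were TATAAA (the TATA box, in 12.4% of all 32841 windows), CCAAT (33.9%), GGGCGG (the GC box, 32.8%), AAGGTCA (the Nr5a1 monomer site, 4.08%), ACGTG (the hypoxia response core, 16.6%) and AGATAA (bound by GATA factors, 9.99%). Tph2 had a TATAAA match at position -30 counted from the start, an ACGTG match at -109 and an AGATAA match at -128. In the Ugt2b36 window an AAGGTCA match at -26 directly followed an AGATAA match at -32, and 2 more AGATAA matches lay farther out. The first Vav3 window held 6 GGGCGG matches, some of them overlapping, and the Atp8b3 window held 4 and the Ak7 window 1. Capg matched none of the 6 motifs. Sprr2d and Sprr2e both had TATAAA at -29 and an overlapping CCAAT on the opposite strand at -24. The TATAAA match at -29 was also found in the paralogs Sprr2b and Sprr2f, and the CCAAT match at -24 was not. Sprr2f had CCAAT matches at -100 and -225, and no window of the paralog Sprr2g was searched. Whether any match bears on the mutant differences was not tested. No motif was found in all 7 windows. The number of CG dinucleotides ran from 0 in Ugt2b36 and 3 in Sprr2d through 7 in Tph2 and Capg, 10 in Ak7 and 13 in Atp8b3 to 24 in the first Vav3 window. The median of all windows was 6, and 7.86% of them had no CG. These matches are letters in a window and say nothing of binding.

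Levels below are log2 values of the processed signal against that array's own 75th percentile, listed in the order of replicates 1, 2 and 3, and negative for genes dimmer than that percentile. A probe is well above background where the scanner software set that flag. A level of one gene cannot be set against that of another, since probes differ. Differences are mutant minus control, with the standard error (SE) of a limma fit over all 12 arrays and n = 3 embryos a group. Within a bulk sample, fewer cells of a type and less RNA per cell cannot be told apart.

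The targeted gene was lower in every mutant. In females Kdm3a stood at 2.89 ± 0.0735 (SD, n = 3) among controls against 0.62 ± 0.165 among mutants, and in males at 2.86 ± 0.165 against 0.91 ± 0.183. It was 3.86-fold lower in mutant males and 4.84-fold lower in mutant females (limma adjusted p = 9.0e-05 and 4.2e-05). Its other probe cleared background in 6 of 6 controls but in 0 of 6 mutants and was lower by at least 4.07-fold in males and at least 6.07-fold in females, whereas the first cleared background in every mutant too. The sources used here do not say which part of the gene is lost, so a probe outside that part would check nothing.

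Of the 8 genes, 7 had male groups and 8 had female groups that did not overlap, mutants lower. The same was seen in 12% of all 19178 features tested in males and in 7.41% in females. At an adjusted p under 0.05, 6 of the 8 were called lower in males (all but Sprr2d and Ugt2b36) and 8 of 8 in females, where 0.469% and 0.355% of all features were called. Since the genes were chosen on these contrasts, nothing can be read from these counts. With such small shares over all features, a short list of genes mostly holds 0 called. A count of 0 in a list below therefore says little about that list. In all, 40 features were called lower in both sexes, and 6 of the 8 genes are among them. Every one of the 8 had a probe that passed the filter on dim probes, and 6 were well above background on all 12 arrays. Tph2 passed only through the control groups, and Ugt2b36 only through the control females.

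**Figure D1:**
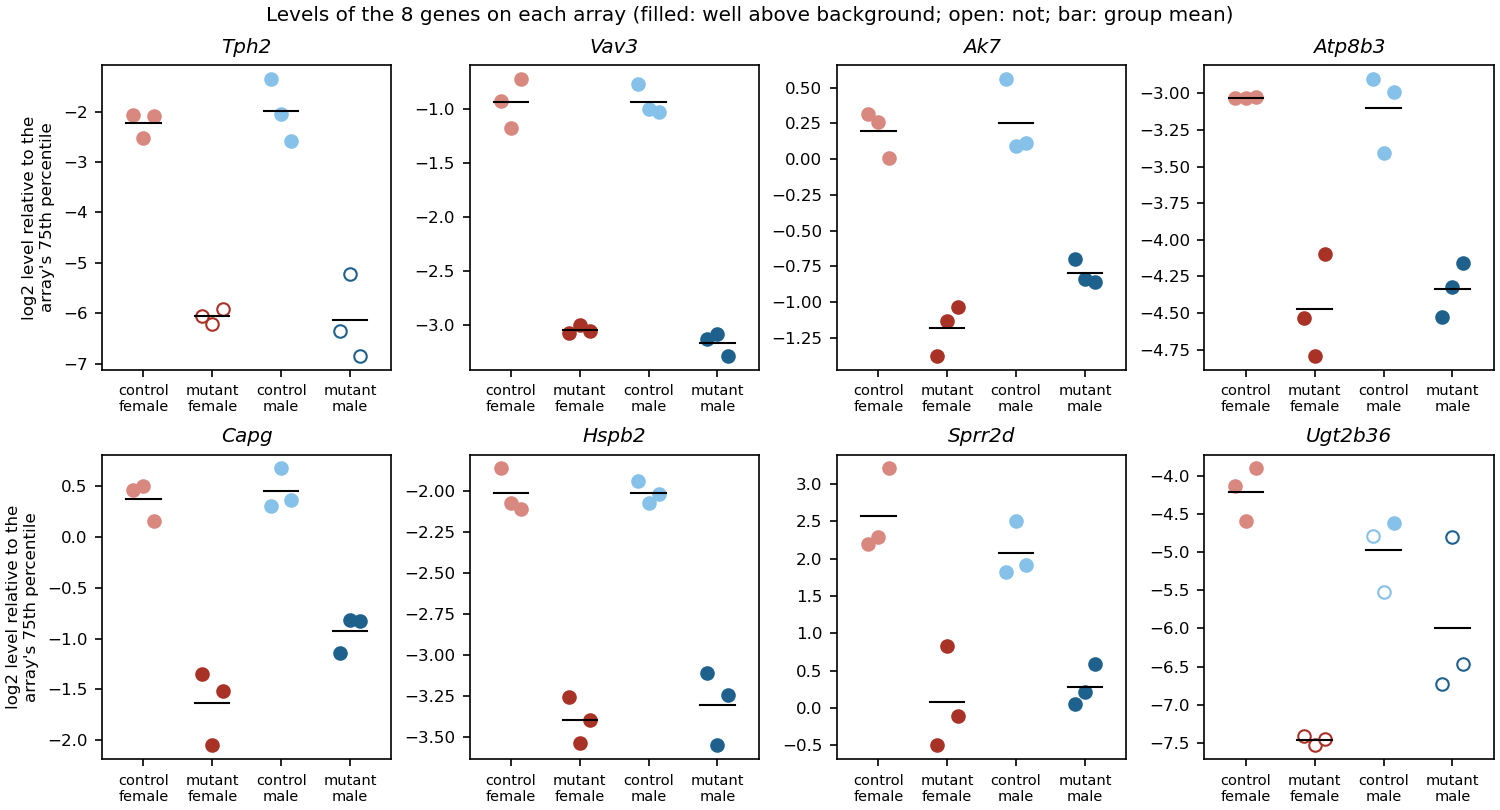
Level of each gene on each array, as log2 relative to the array's 75th percentile, in the 4 groups of 3 embryos (points, arrays; bars, group means; filled, well above background; open, not). Control and mutant points are apart for every gene in both sexes except Ugt2b36 in males, and the mutant points of Tph2 and Ugt2b36 are all open.

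Tph2 was at background in every mutant. Its level was -2.08, -2.52 and -2.09 in the control females and -1.36, -2.04 and -2.59 in the control males, all well above background. In the mutants it was -6.05, -6.22 and -5.91 in females and -6.36, -5.23 and -6.85 in males, and none of these 6 arrays was well above background. The highest mutant, a male at -5.23, lay far below the lowest control, a male at -2.59. Because the mutant signal is at background, the fold is a lower bound: mutant Tph2 was lower by at least 6.94-fold in males and at least 7.87-fold in females. The fitted differences, -4.15 ± 0.39 in males and -3.83 ± 0.39 in females, rest on mutant arrays at background. Serotonin itself was not measured. Of 16 genes listed for serotonin handling and aromatic amino acid hydroxylation, 12 were measured and 0 of them passed the test in either sex, with median differences of -0.16 in males and -0.03 in females. The medians over all features were -0.05 in both sexes. Among these 12, Maob, which breaks down monoamines, differed by -0.57 in females (limma adjusted p = 0.160) and by -0.23 in males. Fev, the transcription factor of serotonin neurons, differed by 0.94 in males (limma adjusted p = 0.391) and by -0.15 in females. In males Fev was near background, well above it in 0 control arrays and 1 mutant array.

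Vav3 had the tightest groups of the set, with a within-group SD of 0.145 against a median of 0.236 over all features. It stood at -0.92, -1.17 and -0.72 in the control females and at -0.77, -1.0 and -1.03 in the control males. The mutants stood at -3.07, -3.00 and -3.06 in females and at -3.13, -3.08 and -3.29 in males. Control and mutant arrays were about 2 units apart with no array between -3.00 and -1.17. The difference was -2.24 ± 0.13 in males (4.71-fold lower) and -2.11 ± 0.13 in females (4.30-fold lower). A second Vav3 probe was well above background on no array and gives no level.

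Capg, the actin-capping protein gene, was well above background on all 12 arrays. Controls stood at 0.46, 0.50 and 0.15 in females and 0.30, 0.67 and 0.36 in males. Mutant females stood at -1.35, -2.05 and -1.52 and mutant males at -1.15, -0.82 and -0.83. Every mutant lay below every control, and every mutant female lay below every mutant male. The difference was -2.01 ± 0.19 in females (4.03-fold lower) and -1.38 ± 0.19 in males (2.60-fold lower). Of 11 listed gelsolin-family and capping genes, 9 were measured and 0 passed, with medians of 0.12 in males and -0.12 in females. Scin, an actin-severing relative of gelsolin, differed by 1.17 in males (limma adjusted p = 0.424) and -0.85 in females (0.501), and Svil, a supervillin, by 0.31 and 0.37.

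Capg lies on chromosome 6, as does Kdm3a itself, 33 genes further on in the RefSeq gene order. The tested genes around Kdm3a, 20 on each side, were therefore examined as well. Apart from Capg, 0 of the other 39 passed the test in either sex. That is near the share of all features that passed, 0.469% in males and 0.355% in females. Their differences ran from -0.78 to 0.61 in males and from -1.27 to 0.65 in females, with medians of -0.13 and -0.03. Vmn1r37, Vmn1r35 and Vmn1r33, 252 to 257 genes from Kdm3a, were the lowest of them in both sexes. The 2 sides are unlike in reach: the 20 tested genes extend to 318 genes away on that side and to 37 on the side of Capg.

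**Figure D2:**
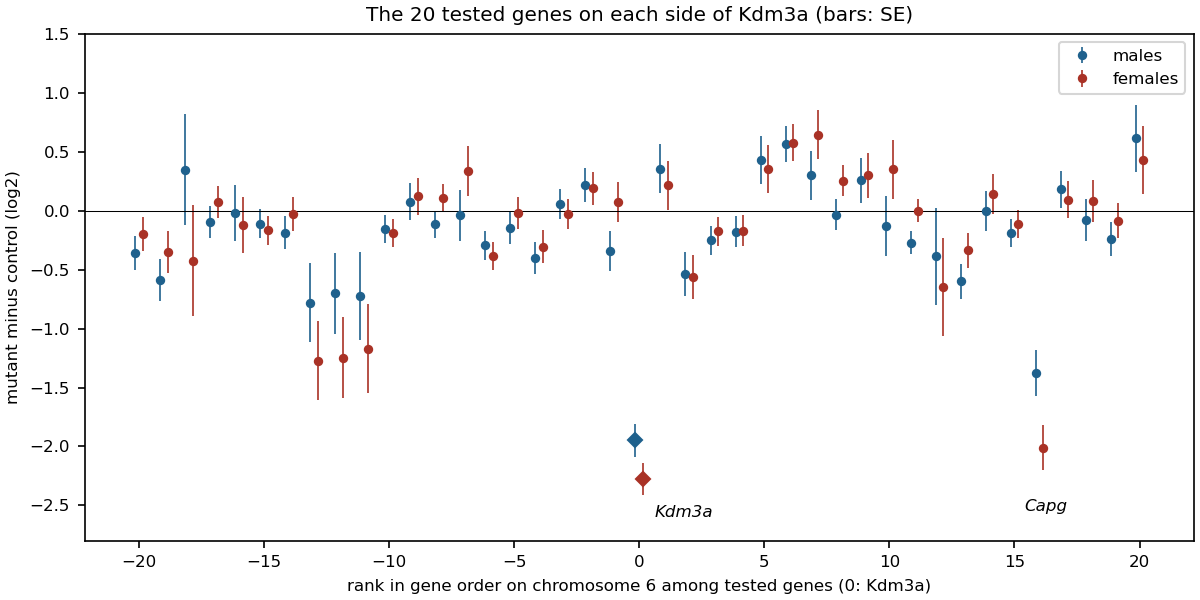
Mutant minus control difference (log2, vertical axis; bars, SE) of Kdm3a and the 20 tested genes on each side of it by their rank in the gene order of chromosome 6 (horizontal axis), in males and females. Capg and Kdm3a lie below the other 39 genes, none of which passed the test.

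Ak7, the ciliary adenylate kinase, was measured by 2 probes on all 12 arrays. On the one with the higher signal it stood at 0.32, 0.26 and 0.01 in control females and 0.56, 0.09 and 0.11 in control males. Mutant females stood at -1.38, -1.13 and -1.04 and mutant males at -0.70, -0.84 and -0.86, all below the lowest control. The difference was -1.05 ± 0.15 in males (2.08-fold lower) and -1.38 ± 0.15 in females (2.60-fold lower). The second probe differed by -0.92 in males and -1.22 in females. Of 8 other adenylate kinases listed, 7 were measured and 0 passed: Ak4, of mitochondria, differed by 0.57 in males (limma adjusted p = 0.382) and -0.03 in females, and Ak1, of the cytosol, by 0.22 and 0.18. Of 19 listed genes of motile cilia and the axoneme, 11 were measured and 0 passed, with medians of -0.19 in males and -0.01 in females. Tekt1, a microtubule protein of cilia, differed by -0.43 in males and -0.56 in females (limma adjusted p = 0.395), and Hydin, of the central pair, by 0.85 in males (limma adjusted p = 0.330) and 0.44 in females.

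Atp8b3 was well above background on all 12 arrays. Control females stood at -3.03, -3.03 and -3.02 and control males at -2.90, -3.41 and -2.99. In the mutants it stood at -4.53, -4.79 and -4.09 in females and at -4.53, -4.32 and -4.16 in males. The nearest arrays of the genotypes were a control male at -3.41 and a mutant female at -4.09. The difference was -1.23 ± 0.19 in males (2.35-fold lower) and -1.44 ± 0.19 in females (2.72-fold lower). Of 17 listed P4-type ATPases and their Tmem30 subunits, 10 were measured and 0 passed, with medians of 0.07 in males and 0.04 in females. Atp8a2, a flippase of neurons, differed by -0.65 in males (limma adjusted p = 0.373) and -0.46 in females, and Atp8b2 by 0.39 and 0.38.

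Hspb2 stood at -1.86, -2.07 and -2.11 in control females and at -1.94, -2.07 and -2.02 in control males, the control sexes 0.00 apart on average. Mutant females stood at -3.26, -3.53 and -3.40 and mutant males at -3.11, -3.55 and -3.25. Mutants and controls were about 1 unit apart at their nearest arrays, in the tightest groups after those of Vav3 (within-group SD 0.152). The difference was -1.29 ± 0.14 in males (2.44-fold lower) and -1.38 ± 0.14 in females (2.61-fold lower). A second Hspb2 probe was well above background on no array. In the RefSeq annotation the Hspb2 interval lies inside that of Cryab, the alpha-B crystallin gene. Probe sequences were not used here, so whether the Hspb2 probe also reads Cryab RNA could not be checked. Cryab differed by -0.41 in males and -0.69 in females and did not pass the test (limma adjusted p = 0.428 and 0.330). Of 9 small heat shock proteins listed besides Hspb2, 4 were measured and 0 passed. Hspb8, the next by p after Cryab, differed by -0.05 in males and 0.36 in females (limma adjusted p = 0.477).

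Sprr2d, the cornified envelope gene, was the most variable of the genes that stayed above background (within-group SD 0.498). It stood at 2.20, 2.29 and 3.21 in control females and 1.82, 2.50 and 1.92 in control males. Mutant females stood at -0.50, 0.83 and -0.10 and mutant males at 0.05, 0.22 and 0.60. The highest mutant, a female at 0.83, was below the lowest control, a male at 1.82. The difference was -1.79 ± 0.36 in males (3.46-fold lower) and -2.49 ± 0.36 in females (5.62-fold lower).

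Ugt2b36 was the gene least often above background. It was well above background in 3 of 3 control females, at -4.14, -4.59 and -3.90, and in 1 of 3 control males, the one at -4.62 beside -4.78 and -5.53. No mutant was: females stood at -7.41, -7.53 and -7.45 and males at -6.72, -4.80 and -6.47. In females the groups were far apart, at least 1.99-fold as a lower bound, with a fitted difference of -3.25 ± 0.43. In males mutant 2, at -4.80, lay above the control at -5.53, the fitted difference was -1.02 ± 0.43, and no fold bound above 1 could be given. The lower male level thus rests on arrays that, but for 1, were not well above background. Of 15 listed glucuronosyltransferase genes 2 were measured and 0 passed: Ugt2b34 differed by -0.27 in males and -0.71 in females (limma adjusted p = 0.489), and Ugdh, which makes the sugar donor, by -0.03 and -0.08.

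**Figure D3:**
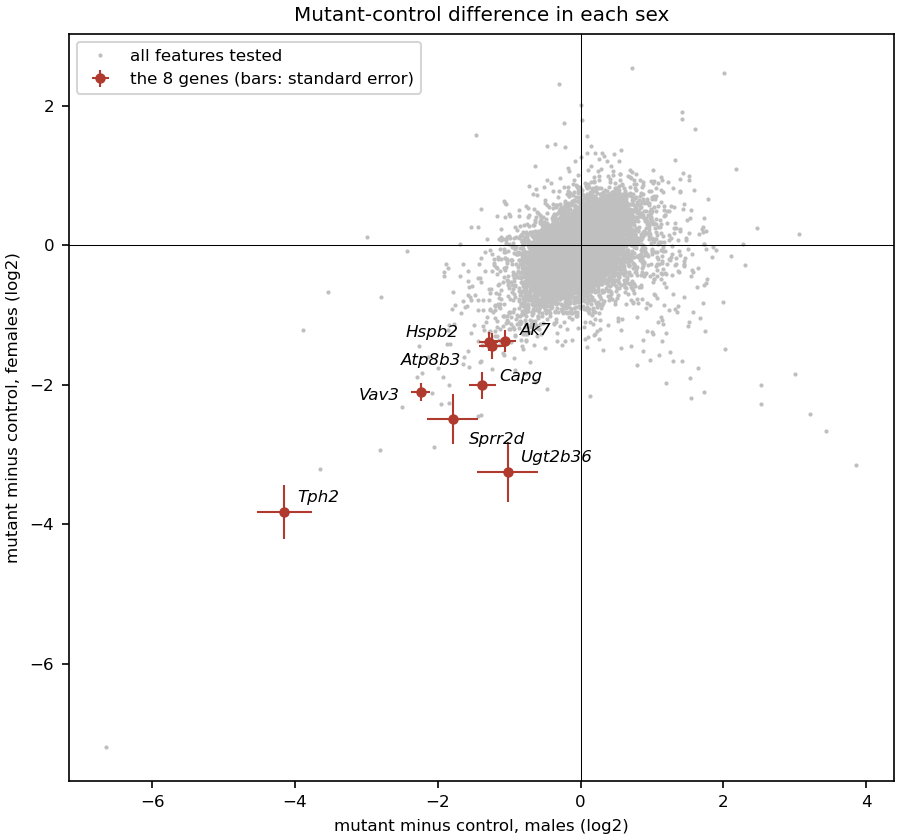
Mutant minus control difference in males (horizontal axis, log2) against females (vertical axis, log2) for all 19178 features (grey) and the 8 genes (red; bars, SE). The 8 genes lie in the lower left, from -4.15 and -3.83 for Tph2 to -1.05 and -1.38 for Ak7, with Ugt2b36 much lower in females than in males.

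The 12 arrays lay on 3 slides of 4, and 2 of the slides held both genotypes of a sex. On slide 1, mutant male 1 differed from the 3 control males by -4.36 for Tph2, -2.20 for Vav3, -1.59 for Capg, -0.96 for Ak7, -1.42 for Atp8b3, -1.10 for Hspb2, -2.03 for Sprr2d and -1.75 for Ugt2b36. On slide 3, the 3 mutant females differed from control female 3 by -3.97 for Tph2, -2.32 for Vav3, -1.79 for Capg, -1.19 for Ak7, -1.45 for Atp8b3, -1.29 for Hspb2, -3.13 for Sprr2d and -3.56 for Ugt2b36. All 16 within-slide values were negative, and the one that moved by more than 1.5 times was that of Ugt2b36 in males. With a background model that adds an offset of 50 (normexp), the differences shrank by more than 1.5 times for 6 genes: Tph2 to -0.91 in males and -1.10 in females, Vav3 to -1.10 and -1.26, Atp8b3 to -0.34 and -0.55, Hspb2 to -0.50 and -0.63, Ugt2b36 to -0.21 and -0.61, and Capg in females to -1.34. The sizes of these differences thus depend on how background was treated, while their direction held.

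Sex differences within each genotype were tested for the 8 genes, on the same arrays. The selection did not use these differences themselves, but it used the group means that they are made from. The choice of genes lower in mutants of both sexes can therefore bear on these sex differences. Counts of 0 passed below thus do not show that the sexes are alike. Among controls, males minus females lay between -0.77 for Ugt2b36 and 0.23 for Tph2, and 0 of 8 genes passed the test, against 0.177% of all features. For the 7 genes other than Ugt2b36 the smallest adjusted p was 0.567, that of Sprr2d (limma). The 95% interval of the control difference was -0.29 to 0.30 for Vav3, -0.30 to 0.30 for Hspb2, -0.35 to 0.50 for Capg, -0.62 to 1.09 for Tph2 and -1.28 to 0.30 for Sprr2d, so differences of about 1 unit cannot be told from none for the last pair. In 1 of the 8, Ugt2b36, the control sexes did not overlap, as in 15.9% of all features. Ugt2b36 entered the test only through the control females, where it is high, so its control difference is a description. With slide as a block that difference turned to 0.47 and with normexp to 0.17, and the Sprr2d difference of -0.49 turned to 0.19 with slide as a block.

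Among mutants, 0 of the 8 passed the test, against 0.13% of all features, a count that also rests on group means used in the choice. Tph2 and Ugt2b36 are in that count but were at background in all mutants. Their mutant values compare background signal, so they are a description with no test. Mutant males minus mutant females was 0.71 for Capg (95% interval 0.28 to 1.13, limma adjusted p = 0.274) and 0.38 for Ak7 (0.04 to 0.72, limma adjusted p = 0.404). For Ugt2b36, at background in both groups, the difference was 1.46. The second Kdm3a probe, well above background on no mutant array, stood at -7.29 in mutant females and -6.77 in mutant males. The mutant sexes did not overlap in 4 of the 8 (Vav3, Ak7, Capg and Ugt2b36), as in 22.9% of all features. Mutant males lay on slides 1 and 2 and mutant females on slide 3, and control males and control females shared no slide either, so slide and sex cannot be told apart by values within a slide. With slide as a block, the Capg difference was 0.49, that of Ak7 0.05 and that of Ugt2b36 2.29.

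The difference between the mutant effects of the sexes is made from the values that chose the genes, so for the 8 genes it is given as a description with no test. Over all 19178 features 0% passed the test of this difference, although 701 had an unadjusted p under 0.05, and with slide as a block 8 passed. Male minus female, the difference of the effects was 0.63 for Capg (95% interval 0.03 to 1.24), and 0.20 with slide as a block. It was 2.23 for Ugt2b36, which was at background in all 6 mutants and 2 of 3 control males, and 0.40 with normexp. For Tph2, at background in all mutants, it was -0.32. It was -0.13 for Vav3 (-0.55 to 0.28), which turned to 0.12 with slide as a block and 0.16 with normexp, and 0.09 for Hspb2 (-0.33 to 0.52). The intervals of Sprr2d (-0.42 to 1.82), Ak7 (-0.16 to 0.81) and Atp8b3 (-0.38 to 0.80) also hold 0.

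**Figure D4:**
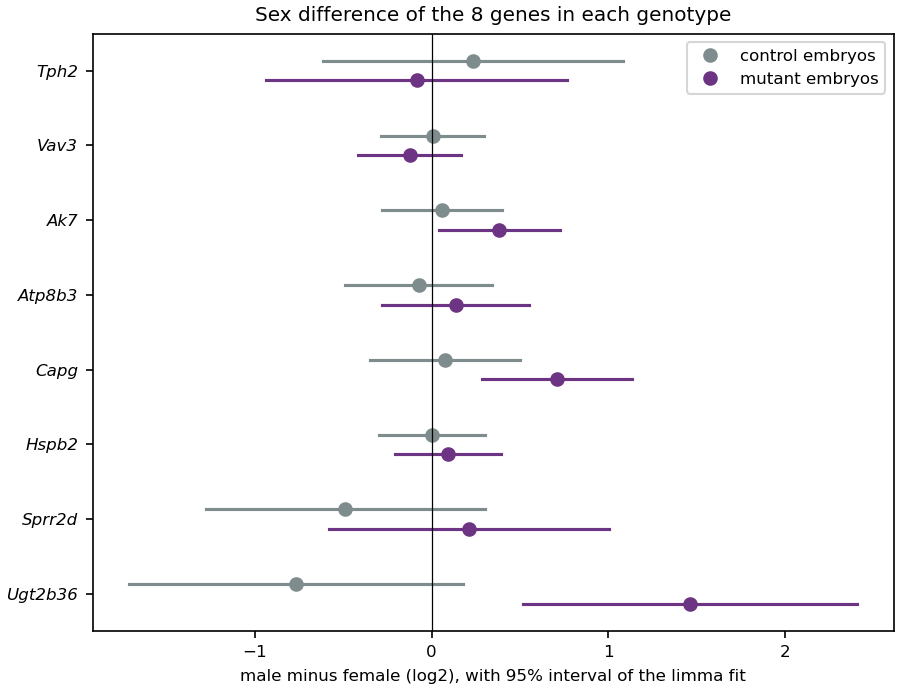
Male minus female difference (log2, horizontal axis) of each of the 8 genes in control and in mutant embryos, with 95% intervals of the limma fit. In controls every interval holds 0, and in mutants those of Ak7, Capg and Ugt2b36 do not, although no gene passed after adjustment. The genes were chosen on the same group means. Tph2 and Ugt2b36 were at background in all mutants, so their mutant intervals are a description with no test.

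The genes on each side were then examined, 3 tested genes a side in the RefSeq order, to see whether lower levels extended beyond the single gene. Of the 48 neighbours, 1 passed the test in males and 2 in females, all lower in mutants, and both of these genes lie beside Sprr2d. Among the 42 neighbours of the other 7 genes 0 passed in either sex, with medians of -0.01 in males and 0.07 in females. Their range was -0.71 to 0.63 over both sexes. Of all features 0.469% passed in males and 0.355% in females, so 0 among 42 is near that share. The nearest tested genes on the sides of Tph2, Tbc1d15 and Atxn7l3b, differed by -0.12 and 0.21 in males and by -0.10 and 0.12 in females. Beside Vav3, Ntng1 differed by 0.63 in males and 0.60 in females (limma adjusted p = 0.182 and 0.262) and Slc25a24 by 0.18 and 0.11. Beside Capg, Elmod3 differed by 0.18 in males and 0.09 in females and Mat2a by -0.19 and -0.12. Papola and Gskip beside Ak7, and Rexo1 and Tcf3 beside Atp8b3, likewise did not pass, nor did 1110032A03Rik and Cryab beside Hspb2. The nearest tested genes on the sides of Ugt2b36, Ugt2b34 and Utp3, did not pass either. Genes without a tested feature were passed over, so some of these neighbours are distant. In the gene order Utp3 lies 47 genes and Ugt2b34 9 genes from Ugt2b36, and Atxn7l3b lies 12 genes from Tph2.

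**Figure D5:**
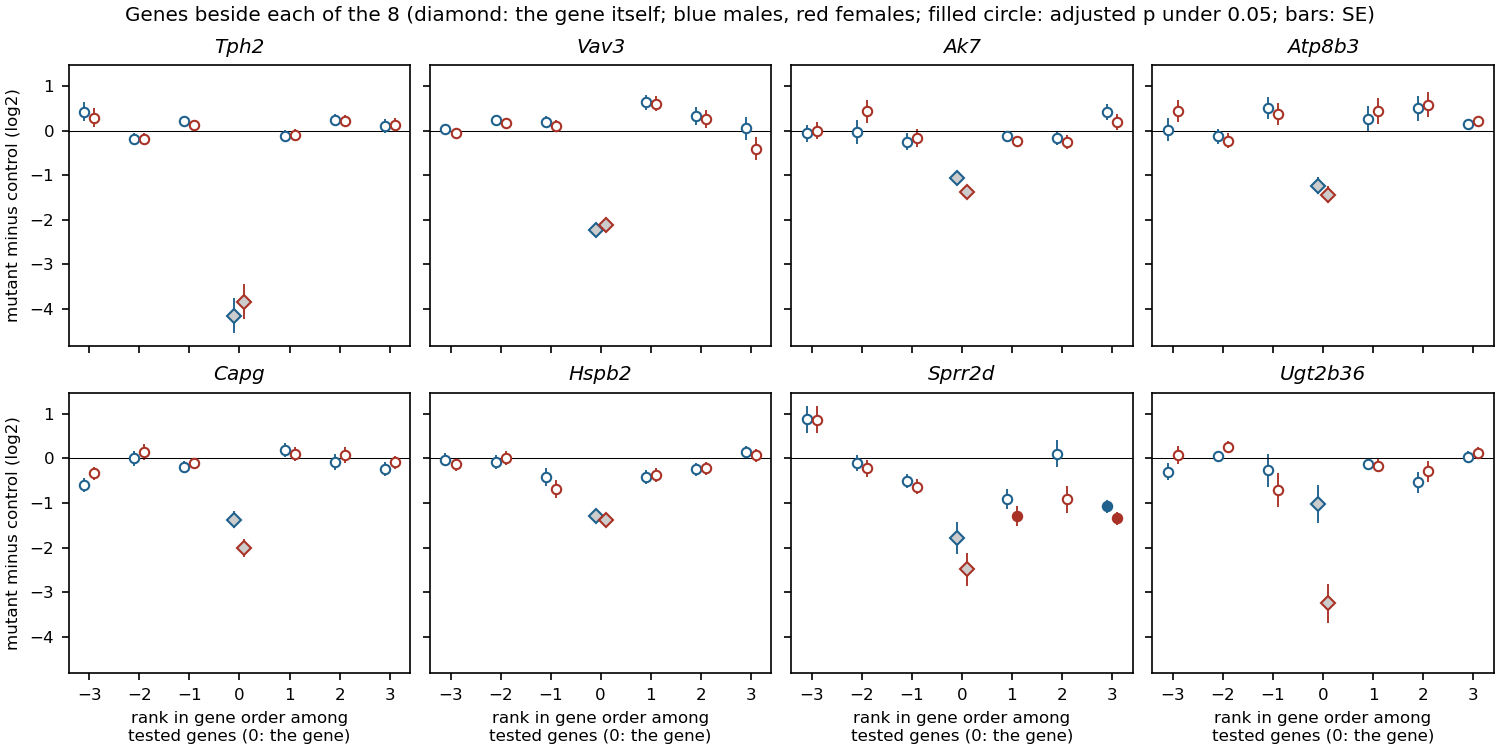
Mutant minus control difference (log2, vertical axis; bars, SE) of each of the 8 genes (diamonds) and of the 3 tested genes on each side (circles; filled, adjusted p under 0.05) by rank in the gene order (horizontal axis), in males (blue) and females (red). Filled circles appear only beside Sprr2d, at ranks 1 and 3.

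The Sprr2 cluster of chromosome 3 was the exception. Sprr2g, a paralog 3 genes from Sprr2d, stood at -2.39, -2.15 and -2.28 in female controls against -3.99, -3.37 and -3.51 in female mutants, and at -2.22, -2.14 and -2.21 in male controls against -3.19, -3.25 and -3.36 in male mutants. It fell by 1.08 ± 0.15 in males (limma adjusted p = 0.0154) and by 1.35 ± 0.15 in females (limma adjusted p = 0.00256). The paralog next to Sprr2d, Sprr2e, stood at -0.25, -0.17 and 0.32 in female controls against -1.64, -0.83 and -1.50 in female mutants, and fell by 1.29 ± 0.22 (limma adjusted p = 0.0401). In males it stood at -0.44, -0.01 and -0.30 in controls and -1.32, -1.04 and -1.15 in mutants, a difference of -0.92 that did not pass (limma adjusted p = 0.154). For both paralogs the genotypes did not overlap in either sex. These calls depended on the setting. With slide as a block the adjusted p of Sprr2g was 0.178 in males and 0.128 in females, and that of Sprr2e in females 0.166, with differences of -1.0, -1.34 and -1.64. Sprr2e in females passed under 5 of 14 other settings and failed when any of the arrays but mutant female 2 was left out of the female groups (limma adjusted p from 0.0632 to 0.190). Sprr2g passed under 12 of 14 in females and 9 of 14 in males. In males its failures include those without control male 1, control male 2 or mutant male 3 (limma adjusted p = 0.0702, 0.071 and 0.0881). Its largest limma adjusted p in males over the 14 settings was 0.207. The Sprr2g difference shrank to as little as -0.41 in males and -0.59 in females.

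Other genes of the cluster did not pass. Sprr2b differed by -0.51 in males and -0.63 in females (limma adjusted p = 0.300 and 0.218), Sprr2f by 0.11 and -0.92 (0.853 and 0.400) and Sprr2a1, the next on from Sprr2b, by -0.10 and -0.23 (0.762 and 0.550). Lor, the loricrin gene at the edge of the window, differed by 0.87 in both sexes (0.343 and 0.425). With 10 genes a side one more passed, Sprr2j-ps, a pseudogene of the cluster, at -1.09 in females (limma adjusted p = 0.0217). Of 19 listed SPRR and cornified envelope genes, 10 were measured, 1 fell in males (Sprr2g) and 2 in females (Sprr2g and Sprr2e), and 0 rose, with medians of -0.19 in males and -0.55 in females. The promoter window of Sprr2d shown above is 88% identical, base for base without gaps, to that of Sprr2e, against 54.4% for Sprr2b, 34.4% for Sprr2f and 24.4% for Sprr2a1. In a count without gaps, an inserted or lost base shifts the rest of a window. The lower shares thus do not show that the windows are unlike, and no Sprr2g window was compared. Sprr2 genes are close copies of each other, and probe sequences were not used here, so the signal of a Sprr2 probe may come in part from a paralog and the number of Sprr2 genes that fell is uncertain.

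Several of the 8 genes are known from cells other than gonadal somatic cells, so markers of such cells were read on the same arrays. Neuron and neural crest markers, 6 of 9 measured, did not pass in either sex, and their summed signal relative to the 75th percentile was 0.96 to 1.41 in control females, 1.00 to 1.60 in mutant females, 1.13 to 1.30 in control males and 1.38 to 1.75 in mutant males. Their part in the Tph2 result was not tested. Surface ectoderm markers, 3 of 6 measured, summed to 0.357 to 0.373 in control females, 0.223 to 0.342 in mutant females, 0.378 to 0.444 in control males and 0.315 to 0.443 in mutant males. One of them, the basal keratin Krt14, fell by 0.81 in males and by 0.83 in females (limma adjusted p = 0.0344 and 0.0354), beside the fall of Sprr2g and Sprr2e, and its part in their fall was not tested. Krt14 passed under only 3 of 14 other settings in males and 4 of 14 in females. Its difference shrank to as little as -0.45 and -0.48. The settings that lost the call include slide and replicate number as a block (limma adjusted p = 0.206 and 0.0757 in males, 0.621 and 0.0821 in females). The other ectoderm markers did not pass, Krt15 at -0.44 in males and 0.22 in females and Grhl2 at 1.33 and -0.29. Macrophage markers, 5 of 8 measured, and hepatocyte markers, of which only Afp was measured, had 0 members that passed, as had striated muscle markers (2 of 5), germ cell markers (5 of 7), erythroid markers (4 of 5) and endothelial markers (5 of 5). Afp differed by 1.74 in males and -1.24 in females (limma adjusted p = 0.450 and 0.561). The muscle markers measured were Des (0.15 and 0.35) and Actc1 (-0.10 and 0.51). Muscle genes outside the lists, named below for their pattern, were lower in mutants. Myl7 differed by -2.81 in males and -2.93 in females, Myl1 by -1.84 and -2.00, Tnni3 by -1.57 and -1.75, and Myl3 by -1.65 and -1.71. They were picked by that pattern, so these values are a description. The median differences were 0.16 in males and 0.68 in females for germ cells, 0.42 and 0.21 for erythroid cells, and 0.64 and -0.45 for endothelium. Mesonephric epithelium markers, 7 of 7 measured, also had 0 that passed, but their sum was 1.75 to 2.55 in mutant males against 0.861 to 1.00 in control males, and 1.06 to 2.47 in mutant females against 1.30 to 1.51 in control females.

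The genes whose pattern over the 12 arrays lay closest to each of the 8 were found by the root mean square difference of log2 levels, each centred on its own mean, which follows both the shape and the size of a difference. Vav3 was closest to Kdm3a itself, at 0.181, ahead of Myl1, a myosin light chain, at 0.252. Sprr2d was also closest to Kdm3a, at 0.466. Ak7 was closest to Pnlip, the pancreatic lipase, at 0.121, with Sprr2g at 0.170 among its nearest 3. Capg was closest to Tnni3 (0.236) and Myl3 (0.302), both genes of the heart muscle sarcomere. Hspb2 was closest to Plac1 (0.180), a placental gene, and Atp8b3 to Ifi27 (0.240) and Oas1a (0.262), both induced by interferon. Tph2 had no near match, with Myl7, the atrial myosin light chain, at 0.727, and neither had Ugt2b36, with Ccdc182 at 0.581. Within the set the closest pairs were Ak7 and Hspb2 (0.207), Atp8b3 and Hspb2 (0.221) and Ak7 and Atp8b3 (0.236). Since the 8 genes were chosen for their mutant-control gap, which makes up most of each distance, the nearest genes are mainly ones with a gap of like size. The 12 arrays also share their slides and genotype groups.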

How the data were processed

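The deposited files are the scanner output of 12 Agilent one-colour arrays, 1 embryo each. Per the file headers they were made with Feature Extraction 10.5.1.1 on array design 014868, with mm9 as the build. The deposited intensity is linear, with background already subtracted and no scaling from array to array. It was converted to log2 and the log2 of each array's 75th percentile was subtracted, leaving out control spots and outlier flags and averaging repeated spots. Probes were named by accession through a RefSeq table (27479 of 41174 probes, 18749 symbols), also used for gene order. A probe was tested if every array of some group had it well above background, and the brightest probe stood for a gene, giving 19178 features.

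A model of 4 group means was fitted to the 12 arrays with limma 3.58.1 (R 4.3.3), with Benjamini-Hochberg adjustment over all features at 0.05 and 10.87 degrees of freedom for the 95% intervals. The fit was also run on simulated data with independent noise and no slide effect, so that run says nothing of slides. Replicates are single embryos, 3 a group, which limits the precision. A fold given as "at least" sets the mean of the brighter group against, per array of the dim group, the probe's own signal or, if higher, the lowest signal that the array has well above background.

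The 8 genes and all gene lists were chosen with earlier results of these data known. Besides them, the genes named are Kdm3a, called neighbours or else the nearest a side, called genes within 20 tested genes of Kdm3a, called family members or else the 2 with the smallest p, and the 3 genes nearest in pattern. The gene list drawn up for Vav3 is not reported here. Cryab, Krt14, the other Sprr2 genes and the Vmn1r genes were also singled out after their values were seen.

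Alternatives were quantile normalization, normexp, no filter or a stricter one on dim probes, separate tests of every probe, slide or replicate number as a block, only the groups compared, and leaving out each array.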

Additional observations from a re-analysis of the deposited data

How the results depend on the processing

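The mutant differences of the 8 genes kept their direction under every alternative that was run, in both sexes. Tph2 and Ugt2b36 have no value under the filter that asks for signal well above background on all 12 arrays. The counts of features moved more. Without a filter on dim probes 35 were called in males (90 as reported) and 43 in females (68), with slide as a block 52 and 13, and with only the groups compared 26 and 34. Leaving out 1 array gave 26 to 93 in males, with 26 to 55 without any 1 of the 6 male arrays, control female 2 or mutant female 3. In females it gave 31 to 133, with 133 without control female 3 and 31 to 43 without any other female array. Sex in controls (34) gave 13 with slide as a block, 10 with only the groups compared and 19 to 40 with 1 array left out (19 to 22 without any 1 control female, control male 1 or 2, or mutant female 1). Sex in mutants (25) gave 11 with the strict filter, 7 with slide as a block, 10 with only the groups compared and 11 to 38 with 1 array left out (11 to 16 without any 1 mutant female or mutant male 1 or 3, and 38 without control female 3). The difference of the mutant effects gave 8 in place of 0 with slide as a block, and 0 whichever array was left out. The cause was not tested. The count of called neighbours, recomputed under all settings after seeing the data, was 2 and became 1 with quantile normalization, without a filter or with only the groups compared, 0 with slide as a block, and 1 to 2 with 1 array left out.

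The replicate number as a block gave 16 features for sex in mutants in place of 25, and ended the Krt14 calls. The labels give same-numbered arrays nothing in common but that number, and whether they share more is not known. The correlations of their deviations from the group means ran from -0.53 to 0.43.

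Several sex differences changed sign, among them those of Ugt2b36 and Sprr2d in controls (-0.77 and -0.49 as reported), and none passed the test under any alternative. With slide as a block, males minus females in controls became -0.18 for Ak7, 0.22 for Atp8b3, -0.33 for Hspb2, 0.19 for Sprr2d and 0.47 for Ugt2b36. In mutants it became 0.18 for Vav3 and -0.14 for Hspb2, and the difference of the effects 0.12 for Vav3. With normexp, the control difference became 0.17 for both Atp8b3 and Ugt2b36, and Vav3 became 0.21 in mutants and 0.16 for the difference of the effects. Signal near background limits Tph2 and Ugt2b36 in mutants, where a fold has only a lower bound.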
